A study of Mus musculus with 12 samples.

Results

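The keratins are the 52 genes, of the 23306 gene symbols in the deposited table, whose symbol is Krt followed by a number and at most 1 letter. Keratin-associated proteins were not included. Their mRNA was followed through 4 sorted cell populations of the mouse thymus, with 3 libraries each. All 12 libraries came from C57 BL6 KitL-tomato reporter mice, in which tomato fluorescence reports Kit ligand, and every sort started from cells that were negative for lineage markers and for the dead-cell stain DAPI. Tomato+ cTEC were cortical thymic epithelial cells, sorted as EpCAM+, CD31- and Ly51+, without binding of the lectin UEA1 and with tomato signal. Tomato- mTEC were medullary thymic epithelial cells, sorted as EpCAM+, CD31- and UEA1+, without Ly51 and without tomato signal. Tomato+ VEC and tomato- VEC were vascular endothelial cells, sorted as CD31+ and EpCAM- with or without tomato signal. The labels do not give the ages of the mice. Cortical and medullary cells differed both in the surface gate and in the reporter, and these cannot be told apart in any value below.

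Keratins build the intermediate filaments of epithelial cells. A type I and a type II chain pair with each other, so that neither type makes a filament alone. Simple epithelia such as gut and liver are known for Krt8 with Krt18, often with Krt7, Krt19 or Krt20. The basal layer of stratified epithelia is known for Krt5 with Krt14, its differentiating layers for pairs such as Krt1 with Krt10, and wounded or activated epidermis for Krt6, Krt16 and Krt17. Hair follicles use a further set of hair and root sheath keratins. In the thymus, antibodies to Krt5 and Krt14 are commonly used to mark the medulla, and antibodies to Krt8 and Krt18 to mark the cortex. Medullary cells are also known to transcribe many genes of other tissues at low levels, each in few cells.

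By these roles the 52 members were grouped as 5 simple, 3 basal, 4 activation-associated, 11 differentiated and 24 hair and root sheath keratins, with 5 others. The stretch from 250 bases before to 30 bases after the annotated start of transcription is printed for 6 members. Krt8 and Krt18 are the simple pair that both epithelial populations carried at high level, Krt5 is the basal keratin that differed between them, and Krt20, Krt76 and Krt33b are a simple, a differentiated and a hair keratin that were called lower in cTEC, where Krt76 was low and the other two nearly absent. Sequences are from RefSeq on GRCm38.p6, read 5′ to 3′ along the gene's strand, with matches to the TATA box letters TATAAA on either strand in capitals.
Krt8, chr15:102004313-102004592, minus strand: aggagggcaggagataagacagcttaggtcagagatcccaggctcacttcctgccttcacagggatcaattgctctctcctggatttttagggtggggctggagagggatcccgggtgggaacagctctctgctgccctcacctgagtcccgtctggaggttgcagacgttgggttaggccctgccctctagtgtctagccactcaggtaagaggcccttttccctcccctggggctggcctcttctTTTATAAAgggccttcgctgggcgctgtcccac
Krt18, chr15:102027966-102028245, plus strand: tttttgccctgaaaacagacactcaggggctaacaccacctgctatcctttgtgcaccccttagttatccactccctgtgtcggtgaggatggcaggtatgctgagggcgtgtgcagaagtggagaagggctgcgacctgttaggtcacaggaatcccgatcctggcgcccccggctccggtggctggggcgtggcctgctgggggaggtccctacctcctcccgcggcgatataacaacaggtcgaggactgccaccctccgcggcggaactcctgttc
Krt5, chr15:101712876-101713155, minus strand: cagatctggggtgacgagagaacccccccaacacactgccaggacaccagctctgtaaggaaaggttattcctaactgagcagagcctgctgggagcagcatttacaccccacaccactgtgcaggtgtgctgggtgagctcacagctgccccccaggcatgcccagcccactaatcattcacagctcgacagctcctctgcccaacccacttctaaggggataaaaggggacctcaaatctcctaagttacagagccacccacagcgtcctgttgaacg
Krt20, chr11:99438124-99438403, minus strand: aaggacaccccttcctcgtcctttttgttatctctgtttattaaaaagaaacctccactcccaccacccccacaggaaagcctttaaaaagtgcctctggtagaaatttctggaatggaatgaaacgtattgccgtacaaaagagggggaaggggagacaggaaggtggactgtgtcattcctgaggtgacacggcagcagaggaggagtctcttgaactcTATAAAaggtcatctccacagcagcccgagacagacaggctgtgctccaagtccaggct
Krt76, chr15:101892891-101893170, minus strand: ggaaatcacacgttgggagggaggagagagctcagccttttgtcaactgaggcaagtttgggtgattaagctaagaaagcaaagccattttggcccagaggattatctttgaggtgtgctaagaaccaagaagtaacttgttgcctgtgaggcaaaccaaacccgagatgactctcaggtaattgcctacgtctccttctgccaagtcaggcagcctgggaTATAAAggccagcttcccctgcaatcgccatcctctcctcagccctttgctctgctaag
Krt33b, chr11:100029839-100030118, minus strand: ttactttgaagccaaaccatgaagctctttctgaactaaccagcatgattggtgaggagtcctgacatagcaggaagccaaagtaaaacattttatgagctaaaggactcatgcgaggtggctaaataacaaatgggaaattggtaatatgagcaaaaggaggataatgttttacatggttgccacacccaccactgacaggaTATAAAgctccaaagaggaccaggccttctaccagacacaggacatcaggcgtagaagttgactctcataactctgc
Krt20 and Krt76 each have TATAAA from 29 to 24 bases before the start, and Krt33b has it from 47 to 42 bases before. In Krt8 the capitals are 2 overlapping matches, one on each strand, that span the start, and Krt18 and Krt5 have none in this window. RefSeq windows were found for 35 of the 52 keratins, in 36 windows. TATAAA stood in 19 of the 36 (52.8%), against 13.1% of all 32851 windows of this length. Both strands were read for each motif. The AP-1 letters TGANTCA were in 5.6% of keratin windows and 7.5% of all windows, and the GC box letters GGGCGG were in 5.6% of keratin windows and 34.7% of all windows. A match describes letters and not a bound site. Krt17, Krt81 and Krt222 were not among the windows used here.

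Total counts per library ranged from 8388869 to 11807130. Levels of a gene across libraries are given as CPM, which are counts scaled to the library total, here adjusted by TMM (trimmed mean of M values), and levels of different genes as the deposited RPKM, which is divided by gene length. The sorted populations carried markers of their cell types. Kitl, for Kit ligand, averaged 222 CPM in tomato+ cTEC and 22.0 CPM in tomato- mTEC (edgeR adjusted p 0.0053). In endothelium Kitl averaged 1043 CPM in tomato+ VEC and 438 CPM in tomato- VEC. That difference did not pass (log2 fold change 1.25, SE 0.53, edgeR adjusted p 0.266). A list of 4 endothelial genes summed to between 5149 and 5475 CPM in tomato+ VEC and between 5287 and 7368 CPM in tomato- VEC. A list of 4 epithelial genes, Epcam among them, summed to between 497 and 763 CPM in the epithelial libraries and to at most 0.4285 CPM in the endothelial ones. A list of 4 cortical genes summed to between 1714 and 2057 CPM in tomato+ cTEC and between 42.9 and 106 CPM in tomato- mTEC. A list of 5 medullary genes summed to between 237 and 560 CPM in tomato+ cTEC and between 4057 and 5474 CPM in tomato- mTEC. Most of that sum was Ccl21a, with a mean of 396 CPM in tomato+ cTEC and 4127 CPM in tomato- mTEC. Aire and Fezf2 averaged 0.087 and 4.30 CPM in tomato+ cTEC, against 159.8 and 202.9 CPM in tomato- mTEC. Other lists moved with these 2 groups, and their part in the keratin results was not tested. The 4 fibroblast and mural genes summed to between 1561 and 2077 CPM in tomato+ cTEC, against 138 to 378 CPM in tomato- mTEC. Nearly all of that sum was Dcn, with a mean of 1864 CPM in tomato+ cTEC and 241 CPM in tomato- mTEC. Pdgfra, Col1a1 and Pdgfrb had means of 3.88, 6.785 and 1.258 CPM in tomato+ cTEC, against 2.783, 2.718 and 10.05 CPM in tomato- mTEC. The 4 myeloid genes summed to between 2.11 and 144 CPM in tomato+ cTEC, against 344 to 398 CPM in tomato- mTEC, and the 5 thymocyte genes to between 37.2 and 67.7 CPM in tomato+ cTEC, against 11.1 to 29.0 CPM in tomato- mTEC. Nearly all of the myeloid sum in tomato- mTEC was Lyz2, with a mean of 352.7 CPM. In tomato+ cTEC Lyz2 had 14, 0 and 1634 counts. Most of the thymocyte sum in tomato- mTEC was Lck, at a mean of 15.8 CPM. Lck averaged 19.15 CPM in tomato+ cTEC, 13.77 CPM in tomato+ VEC and 15.89 CPM in tomato- VEC. The 4 endothelial genes summed to 14.7, 204 and 1.73 CPM in tomato+ cTEC, so that replicate 2 stood above the others, and to between 13.4 and 41.0 CPM in tomato- mTEC. Whether the 3 libraries of a group are separate animals is not stated, so each p-value below reflects the spread among libraries, which may be technical.

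Of the 52 keratins, 22 reached a mean of at least 1 CPM in tomato+ cTEC and 35 in tomato- mTEC, but 3 in tomato+ VEC and 3 in tomato- VEC. The epithelial populations differed mostly in how many differentiated and hair keratins were detected. All 3 basal and all 4 activation-associated keratins were detected in both, and 4 of 5 simple keratins in tomato+ cTEC against 5 of 5 in tomato- mTEC. Differentiated keratins were detected in 5 of 11 cases in tomato+ cTEC and 9 of 11 in tomato- mTEC, and hair keratins in 4 of 24 cases in tomato+ cTEC and 10 of 24 in tomato- mTEC. Of all 52, 9 had no count in any library of tomato+ cTEC and 2 had none in tomato- mTEC. By mean RPKM, symbols without a count shared rank 17914 of 23306 in tomato+ cTEC and rank 19256 of 23306 in tomato- mTEC. More symbols of all kinds thus had counts in tomato- mTEC. Whether keratins differed from other genes in detection was not tested. The filter before the test asks for a minimum level in enough libraries, and 24 keratins did not meet it. Of these, 10 had under 10 counts over the 12 libraries together, while 6 had 100 counts or more, up to 215. The other 28 were tested.

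**Figure D1:**
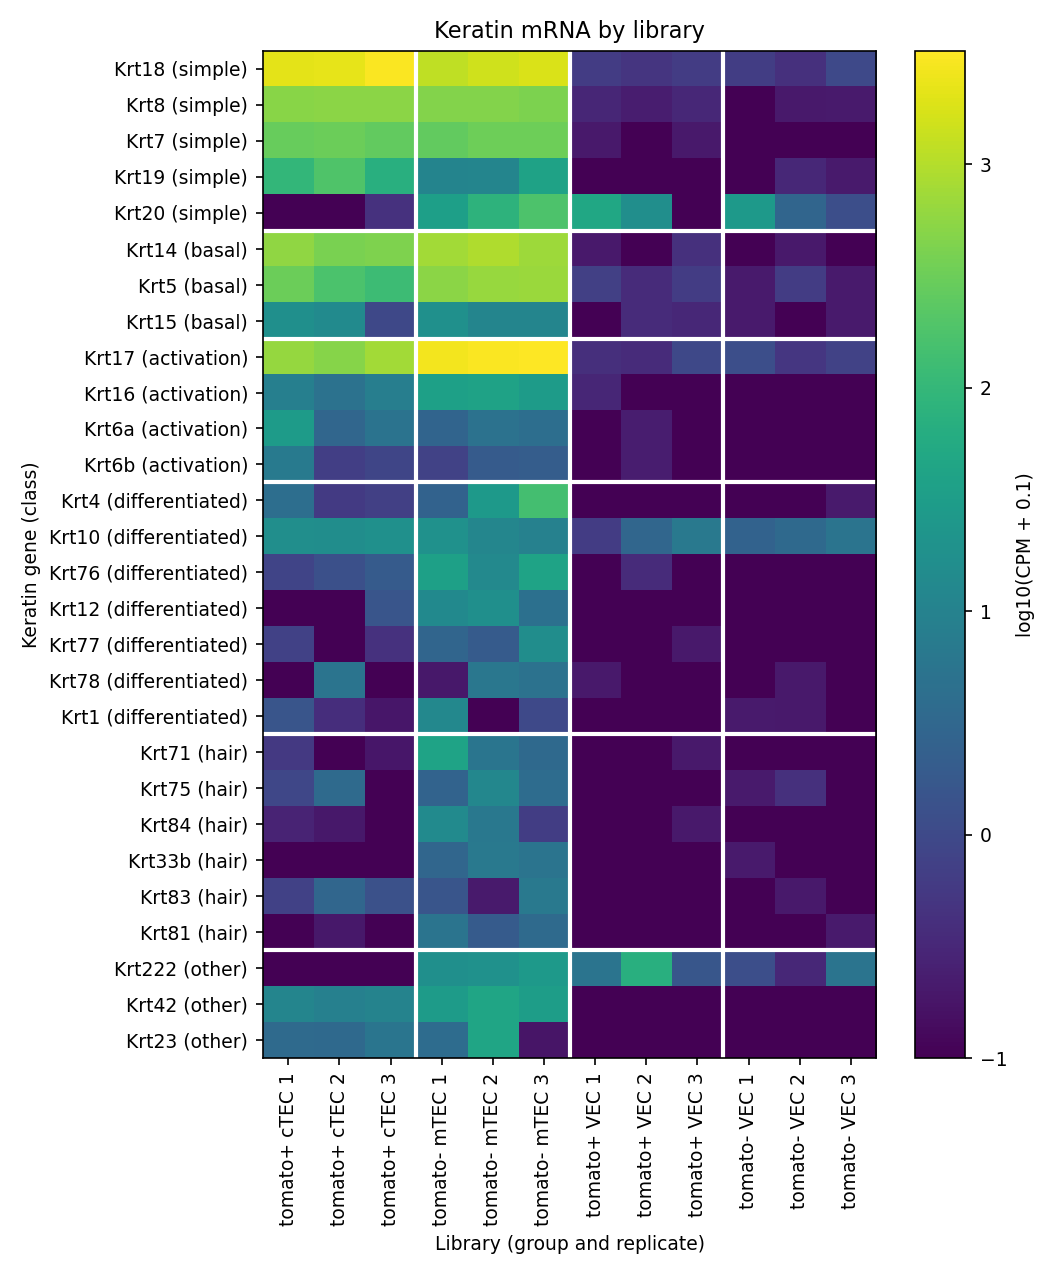
Keratin mRNA in each of the 12 libraries for the 28 keratins with a group mean of at least 5 CPM, a call or a place fixed by role, as log10(CPM + 0.1), with rows ordered by class. The simple, basal and activation-associated rows are bright in all 6 epithelial libraries apart from Krt20 in tomato+ cTEC and the weaker Krt15, Krt16, Krt6a and Krt6b, while Krt10, Krt20 and Krt222 are the rows with signal in endothelial libraries.

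Taken per length, simple keratins made up most of the keratin message of cortical cells, and activation-associated keratins were the largest class in medullary cells. The simple class made up 68.0%, 76.2% and 75.5% of the summed keratin RPKM in the tomato+ cTEC libraries, against 33.3%, 34.3% and 37.5% in the tomato- mTEC libraries. The activation-associated class, nearly all of it Krt17, made up 14.4%, 11.4% and 14.8% in tomato+ cTEC and 45.8%, 44.4% and 44.1% in tomato- mTEC. In neither class did the libraries of the 2 populations overlap, and an exact permutation test of 3 against 3 libraries cannot give a two-sided p below 0.1. The basal class averaged 12.4% ± 3.88 in tomato+ cTEC and 17.3% ± 1.8 in tomato- mTEC (SD, n = 3 each), with overlapping libraries. Differentiated keratins were 0.396% ± 0.0449 in tomato+ cTEC and 1.35% ± 0.716 in tomato- mTEC, and hair keratins 0.185% ± 0.0979 in tomato+ cTEC and 0.635% ± 0.299 in tomato- mTEC (SD, n = 3 each).

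**Figure D2:**
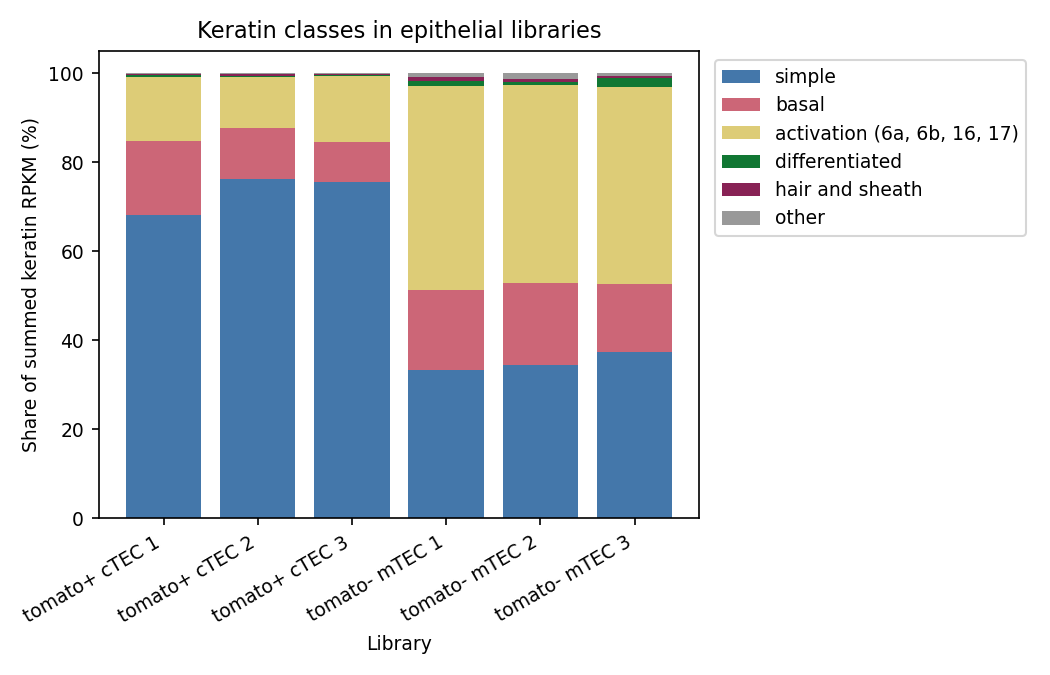
Share of the summed keratin RPKM (percent) taken by each keratin class in the 3 tomato+ cTEC and 3 tomato- mTEC libraries, 1 stacked bar per library. Simple keratins fill 68.0% to 76.2% of the tomato+ cTEC bars and 33.3% to 37.5% of the tomato- mTEC bars, where activation-associated keratins fill 44.1% to 45.8%.

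The total differed less than its make-up. Keratins summed to 3450 ± 335 RPKM in tomato+ cTEC and 4720 ± 457 RPKM in tomato- mTEC (SD, n = 3 each), and took 0.48% to 0.571% of all counts in tomato+ cTEC and 0.672% to 0.813% in tomato- mTEC. Type I chains outweighed type II chains in both, with a ratio of summed RPKM of 4.48 ± 1.04 in tomato+ cTEC and 4.6 ± 0.215 in tomato- mTEC (SD, n = 3 each). Within the simple pair the RPKM of Krt18 was 6 ± 1.05 times that of Krt8 in tomato+ cTEC and 4.31 ± 1.18 times in tomato- mTEC. Within the basal pair the RPKM of Krt14 was 3.41 ± 1.18 times that of Krt5 in tomato+ cTEC and 1.73 ± 0.28 times in tomato- mTEC. The type II chain of the simple pair against that of the basal pair, Krt8 to Krt5, gave an RPKM ratio of 3.67 ± 1.7 in tomato+ cTEC and 0.909 ± 0.172 in tomato- mTEC (SD, n = 3 each). By mean RPKM among all 23306 symbols, Krt18 ranked 21st in tomato+ cTEC and 48th in tomato- mTEC, and Krt17 ranked 155th in tomato+ cTEC and 25th in tomato- mTEC.

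Between tomato+ cTEC and tomato- mTEC, 7 keratins fell in the cortical cells and none rose. Krt17 and Krt5 were lower by several-fold at high level in both populations, while Krt20, Krt222, Krt33b and Krt81 were present in mTEC and at or near zero in cTEC. Krt76 lay between, at a low level in cTEC. The test was edgeR's quasi-likelihood test across the 14792 genes that passed the filter, with Benjamini-Hochberg adjustment over all of them and a threshold of 0.05. It called 7 of the 28 tested keratins lower, where 5.1% of all tested genes were called lower and 7.83% in either direction. It called 0 higher, where 2.73% of all genes were, and by an unadjusted p under 0.05 the counts were 17 of 28 keratins and 20.4% of all genes. With DESeq2, 1 keratin rose and 15 fell, where 15.2% of all genes it tested were called in either direction. The median log2 fold change of the 28 was -1.87, also with members that have no counts in cTEC set at their bound, against 0.02 over all tested genes. The filter shapes this count: 12 of the 28 passed its minimum of 1.02 CPM in every mTEC library but not in every cTEC library, and 7 passed it in no cTEC library. Of these 7, Krt33b, Krt71, Krt77, Krt79 and Krt81 passed through mTEC alone and so had to be lower in cTEC to be tested at all. Libraries of the 2 populations did not overlap for 4 keratins that were higher in cTEC and 14 that were lower, where this held for 18.7% and 20.3% of all tested genes, or 39% in either direction. Krt33b, Krt71, Krt77, Krt79 and Krt81 are among the 14, and Krt13, which passed through cTEC alone, is among the 4. The filter fixed the separation of these members, so the 2 counts are no test of the class.

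**Figure D3:**
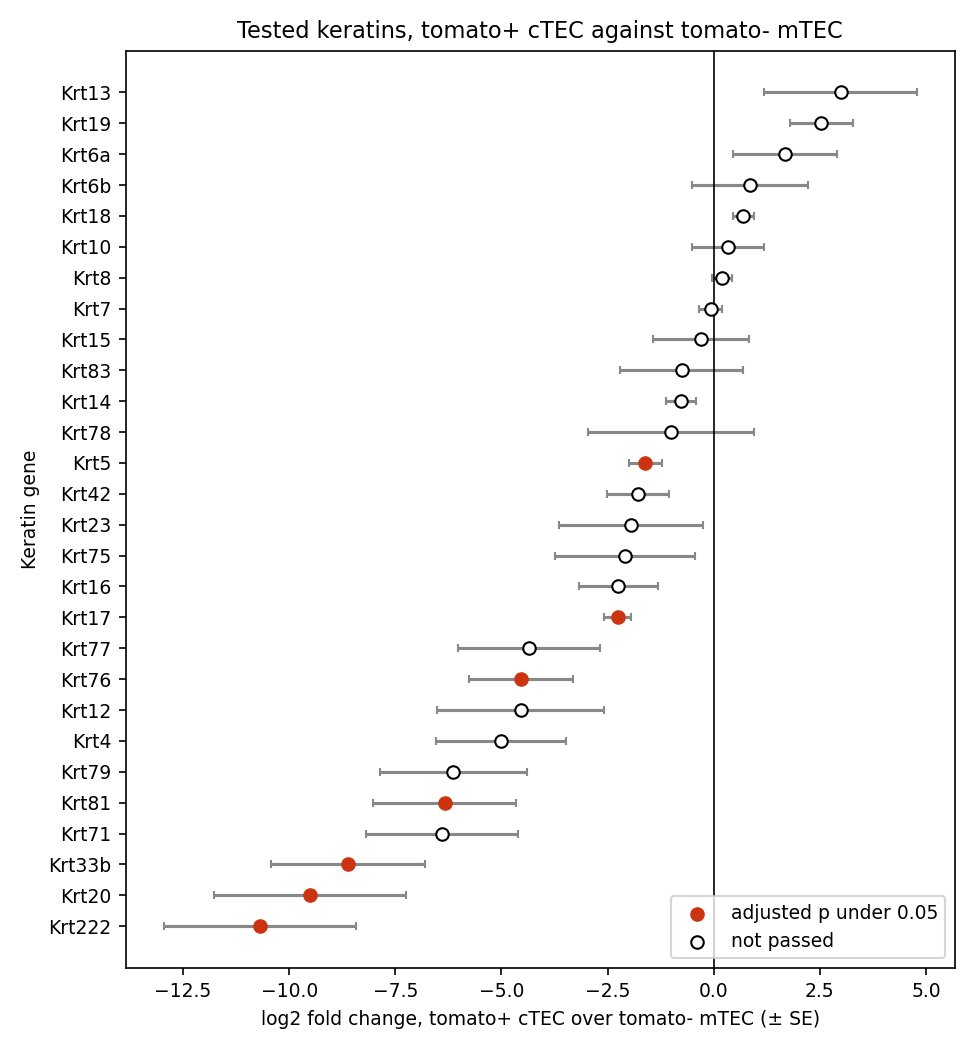
Log2 fold change of tomato+ cTEC over tomato- mTEC (horizontal axis, bars ± SE) for the 28 tested keratins, with filled points for an adjusted p under 0.05. All 7 filled points lie left of 0, and the high keratins Krt8, Krt18, Krt7 and Krt14 have short bars close to 0.

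Among the activation-associated keratins, Krt17 is a type I chain known from hair follicles, wounded skin and complex epithelia. It stood at 622, 482 and 769 CPM in tomato+ cTEC, against 2693, 3082 and 3213 CPM in tomato- mTEC. Every cTEC library lay far below every mTEC library. Its log2 fold change was -2.26 ± 0.32 (SE), with an adjusted p of 0.00175 by edgeR, and it was called under every alternative setting and with any one epithelial library left out. Krt16, its close relative, had 8.80, 4.90 and 8.31 CPM in tomato+ cTEC and 36.4, 39.2 and 29.5 CPM in tomato- mTEC. Those libraries did not overlap either, but the log2 fold change of -2.25 ± 0.93 did not pass (edgeR adjusted p 0.198). The type II partners ran the other way without passing: Krt6a had 30.2, 2.94 and 5.11 CPM in tomato+ cTEC, against 2.70, 5.00 and 4.17 CPM in tomato- mTEC. A single cTEC library was high, and the groups overlapped (log2 fold change 1.68 ± 1.23, edgeR adjusted p 0.537). Krt6b, with 0.86 ± 1.37 on the log2 scale, had 83.4% of its cTEC level in replicate 1, and without that replicate its sign turned to -1.16. Reads of these genes may have been divided between copies, since 45.7% of the 50-base words of Krt6a transcripts, 50.1% of those of Krt6b and 37.6% of those of Krt16 also occur in transcripts of other genes. For Krt17 that share was 4.0%.

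Among the basal keratins, Krt5 is the type II chain of the basal layer. It had 314, 170 and 121 CPM in tomato+ cTEC, against 531, 649 and 666 CPM in tomato- mTEC. All cTEC libraries were lower, and replicate 1 stood closest to the mTEC range. The log2 fold change was -1.61 ± 0.39 (edgeR adjusted p 0.0298), and the call was lost when any epithelial library but cTEC replicate 1 was left out, and with limma on log2(RPKM + 0.1). Its partner Krt14 had 578, 396 and 434 CPM in tomato+ cTEC, against 765, 928 and 713 CPM in tomato- mTEC. The groups did not overlap, but a log2 fold change of -0.77 ± 0.35 did not pass (edgeR adjusted p 0.241). The 95% interval of that difference ran from -1.59 to 0.04, and its lower end is close to the size seen for Krt5. This interval uses 8 residual degrees of freedom and reaches past 0, while the unadjusted p by edgeR was 0.0485. Krt15, a further type I chain of basal cells, had 17.8, 14.2 and 0.866 CPM in tomato+ cTEC, against 18.4, 10.9 and 11.0 CPM in tomato- mTEC. Here 1 cTEC library was nearly empty while the other 2 lay in the mTEC range (log2 fold change -0.30 ± 1.14, edgeR adjusted p 0.947).

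The simple keratins showed small differences for the chief pair and large ones, in opposite directions, for Krt19 and Krt20. Krt8 had 499, 525 and 534 CPM in tomato+ cTEC, against 476, 475 and 410 CPM in tomato- mTEC. Krt18 had 2131, 2152 and 2980 CPM in tomato+ cTEC, against 1196, 1512 and 1778 CPM in tomato- mTEC. Both were higher in every cTEC library than in any mTEC library, by little for Krt8. Neither passed: the log2 fold change was 0.19 ± 0.24 for Krt8 (95% interval -0.35 to 0.74, edgeR adjusted p 0.764) and 0.70 ± 0.25 for Krt18 (0.11 to 1.28, edgeR adjusted p 0.127). Krt7, a type II chain of ducts and glands, had 293, 319 and 267 CPM in tomato+ cTEC and 268, 326 and 331 CPM in tomato- mTEC, with a log2 fold change of -0.07 ± 0.27 (95% interval -0.70 to 0.55, edgeR adjusted p 0.942). The intervals of Krt8 and Krt7 leave room for differences of up to 0.74 and 0.70 on the log2 scale. A part of the Krt8 counts is uncertain, because 26.9% of its 50-base words also occur in the Krt8-ps pseudogene.

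Krt19, the small type I chain of ductal epithelia, had 94.9, 185 and 70.3 CPM in tomato+ cTEC, against 10.5, 11.0 and 38.9 CPM in tomato- mTEC. Every cTEC library was above every mTEC library, and mTEC replicate 3 was the highest of its group. The log2 fold change of 2.53 ± 0.74 did not pass (edgeR adjusted p 0.0683), but did with mTEC replicate 3 left out, with DESeq2, with limma on RPKM and in a fit of the 6 epithelial libraries alone. Krt20, a type I chain best known from the gut lining and from urothelium, had 0, 0 and 0.346 CPM in tomato+ cTEC, against 34.6, 81.3 and 174 CPM in tomato- mTEC. That is 4 counts in all cTEC libraries and 3225 in all mTEC libraries. The level differed several-fold among the mTEC libraries, but none came near the cTEC ones (edgeR adjusted p 0.0267). The call was lost with any one epithelial library left out.

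Among the other keratins, Krt222 encodes a keratin-like protein whose gene lies beside Krt24 in the type I cluster. It had no count in any tomato+ cTEC library, against 17.5, 19.0 and 26.4 CPM in tomato- mTEC. With 0 against 674 counts it was at least 233-fold lower in cTEC, by a floor of 3 counts over the group (edgeR adjusted p 0.0212). The 3 mTEC libraries were close to each other. The call was lost with any one epithelial library left out except mTEC replicate 3. Krt42, a type I keratin gene next to Krt17 in mouse, had 11.4, 9.11 and 10.2 CPM in tomato+ cTEC and 30.2, 43.7 and 32.4 CPM in tomato- mTEC. The groups were tight and did not overlap, but -1.79 ± 0.73 on the log2 scale did not pass (edgeR adjusted p 0.209). Krt23 had 3.49, 3.43 and 5.63 CPM in tomato+ cTEC, against 3.76, 44.8 and 0.080 CPM in tomato- mTEC, where replicate 2 held 92.1% of the group's level. Its log2 fold change of -1.95 ± 1.69 (edgeR adjusted p 0.635) turned to 1.14 without that library.

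Differentiated keratins were spread unevenly over the mTEC libraries. Of the 8 tested members 1 fell in cTEC and 7 did not pass, where 5.1% of all tested genes were called lower. The median log2 fold change was -4.45, against 0.02 over all genes, but Krt77 and Krt79 had passed the filter through mTEC alone and Krt13 through cTEC alone. Krt76, a type II chain of the hard palate and gums, had 0.734, 1.18 and 1.91 CPM in tomato+ cTEC, against 35.7, 13.4 and 40.7 CPM in tomato- mTEC. All cTEC libraries were well below all mTEC libraries. Its log2 fold change was -4.54 ± 1.22 with an edgeR adjusted p of 0.0499, at the threshold, and the call was lost with any one epithelial library left out and with no filter. Krt4, a type II chain of inner stratified linings such as the oesophagus, had 4.22, 0.490 and 0.606 CPM in tomato+ cTEC and 2.51, 27.8 and 142 CPM in tomato- mTEC. One mTEC library held most of it, another lay within the cTEC range, and -5.01 ± 1.54 on the log2 scale did not pass (edgeR adjusted p 0.0824). Krt12, known from the cornea, had 0, 0 and 1.47 CPM in tomato+ cTEC, against 13.6, 17.4 and 4.49 CPM in tomato- mTEC (log2 fold change -4.55 ± 1.96, edgeR adjusted p 0.24). Krt79, a type II chain known from hair canals and glands of the skin, had 1 count in all cTEC libraries and 90 in all mTEC libraries, with an edgeR adjusted p of 0.0507.

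Krt77 and Krt78 gave log2 fold changes of -4.35 ± 1.68 (edgeR adjusted p 0.167) and -1.0 ± 1.95 (edgeR adjusted p 0.873). Krt13, the type I partner of Krt4, had 1.65, 1.76 and 1.47 CPM in tomato+ cTEC, against 0, 0 and 0.561 CPM in tomato- mTEC. It was thus low throughout and opposite to Krt4, and 2.99 ± 1.8 on the log2 scale did not pass (edgeR adjusted p 0.412). Krt10, the type I chain of the suprabasal epidermis, was the steadiest of the class, with 16.6, 16.2 and 18.2 CPM in tomato+ cTEC and 19.1, 11.7 and 9.30 CPM in tomato- mTEC (log2 fold change 0.34 ± 0.85, edgeR adjusted p 0.905). Its partner Krt1 had too few counts in most libraries for the test, with 1.47, 0.294 and 0.087 CPM in tomato+ cTEC and 12.5, 0 and 0.882 CPM in tomato- mTEC. A single mTEC library held 93.4% of the Krt1 level in that group.

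The 24 hair and root sheath keratins together summed to 10.2, 15.3 and 5.02 CPM in tomato+ cTEC, against 80.7, 51.7 and 37.2 CPM in tomato- mTEC. Every mTEC library was above every cTEC library in this sum. Of these 24 genes 5 were tested, 2 fell and 3 did not pass, where 5.1% of all tested genes were called lower and 7.83% either way. Both that fell, and Krt71 of the rest, had passed the filter through mTEC alone, so their direction was fixed by the filter and the count says nothing of the class. Krt33b, a type I hair keratin, had no count in tomato+ cTEC and 2.99, 6.63 and 5.29 CPM in tomato- mTEC. It was at least 53.3-fold lower in cTEC by a floor of 3 counts over the group (0 against 154 counts, edgeR adjusted p 0.0289). Krt81, a type II hair keratin, had 0, 0.098 and 0 CPM in tomato+ cTEC, against 5.40, 1.86 and 3.45 CPM in tomato- mTEC. With 1 against 115 counts the ratio was 119-fold lower in cTEC, with a 95% counting interval of 21.0 to 4760 (edgeR adjusted p 0.0483). Both calls were lost with any one epithelial library left out and with no filter. The counts of Krt33b and Krt81 are also less certain than most, since 24.2% and 37.7% of their 50-base words occur in other hair keratins.

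Krt71, a type II chain of the inner root sheath, had 0.459, 0 and 0.087 CPM in tomato+ cTEC, against 40.9, 5.46 and 3.37 CPM in tomato- mTEC. The mTEC libraries were all higher, replicate 1 by far, and -6.41 ± 1.79 on the log2 scale did not pass (edgeR adjusted p 0.0567). Krt84, a hair keratin also known from the tongue, had too few counts in most libraries for the test, with 0.183, 0.098 and 0 CPM in tomato+ cTEC and 14.4, 6.39 and 0.561 CPM in tomato- mTEC. Krt75 and Krt83 had log2 fold changes of -2.08 ± 1.65 (edgeR adjusted p 0.58) and -0.75 ± 1.45 (edgeR adjusted p 0.873). The order reversed for Krt32 and Krt36, which were too low in most libraries for the test and are named after their values were seen. Krt36 had 5.69, 0.686 and 3.03 CPM in tomato+ cTEC and 0, 0.814 and 0.240 CPM in tomato- mTEC, and of 83 cTEC counts of Krt32 most came from replicate 2, at 7.84 CPM.

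The classes also differed in how evenly a member was spread over the 3 mTEC libraries, where an even spread puts a share of 33.3% in each. Among members with a mean of at least 1 CPM in mTEC, the library with the most held a median of 39.6% of the level for simple, 38.6% for basal and 39.7% for activation-associated keratins. It held 65.2% for the 9 differentiated and 66.3% for the 10 hair keratins, and up to 93.4% and 89.2%. The library that was highest was not the same one: Krt1, Krt71 and Krt84 were highest in replicate 1, Krt23, Krt73 and Krt75 in replicate 2, and Krt4, Krt20 and Krt77 in replicate 3. Low counts alone widen such shares, and the part of counting error in these values was not tested.

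Genes that act with keratins were read from lists. Of 12 genes for linker proteins that tie keratin filaments to desmosomes and hemidesmosomes or bundle them, 2 rose in tomato+ cTEC, none fell and 10 did not pass, where 2.73% of all tested genes were called higher and 5.1% lower. Their median log2 fold change was 0.69, beside the 0.02 of all genes. Plec, for plectin, which links intermediate filaments to other cell structures, had 385, 311 and 315 CPM in tomato+ cTEC, against 129, 188 and 181 CPM in tomato- mTEC (log2 fold change 1.03 ± 0.23, edgeR adjusted p 0.0212). Dst, for dystonin, had 327, 294 and 272 CPM in tomato+ cTEC, against 111, 129 and 181 CPM in tomato- mTEC (1.08 ± 0.30, edgeR adjusted p 0.0488). Dsp, for the desmosomal plaque protein desmoplakin, had 777, 641 and 656 CPM in tomato+ cTEC and 240, 318 and 296 CPM in tomato- mTEC, which did not pass (1.28 ± 0.70, edgeR adjusted p 0.351).

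Of the 19 genes of the cornified envelope and late epidermal differentiation 8 were tested, and 1 fell, none rose and 7 missed the threshold, with a median of -1.02. Over all tested genes 5.1% were called lower and 2.73% higher, with a median of 0.02. Krtdap, a secreted protein of differentiating keratinocytes, had 97.9, 36.2 and 83.8 CPM in tomato+ cTEC, against 280, 321 and 329 CPM in tomato- mTEC (log2 fold change -2.09 ± 0.46, edgeR adjusted p 0.0186). Of 14 tested regulators of keratin and epidermal genes 2 fell and 12 did not pass, with a median of -0.29, against the same 5.1% of all genes. Ehf, an ETS factor of epithelia, had 11.8, 0.294 and 12.9 CPM in tomato+ cTEC and 142, 144 and 191 CPM in tomato- mTEC (-4.25 ± 0.92, edgeR adjusted p 0.0174). Grhl3, a grainyhead factor of the epidermal barrier, had 0.092, 0 and 0.260 CPM in tomato+ cTEC and 8.20, 24.2 and 8.58 CPM in tomato- mTEC (-6.70 ± 1.59, edgeR adjusted p 0.0315). Grhl3 had passed the filter through mTEC alone and so had to be lower in cTEC to be tested at all. Trp63, for the p63 factor of stratified epithelia, had 621, 614 and 405 CPM in tomato+ cTEC, against 122, 209 and 159 CPM in tomato- mTEC, a log2 difference of 1.74 ± 1.15 that missed the threshold (edgeR adjusted p 0.468). Of 12 tested genes for other intermediate filament proteins only Gfap was called, where 7.83% of all genes were, with 2.20, 1.27 and 3.64 CPM in tomato+ cTEC and no count in tomato- mTEC (edgeR adjusted p 0.0324), and it had passed the filter through cTEC alone.

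Between tomato+ VEC and tomato- VEC no keratin passed the edgeR test, where 0.568% of all tested genes were called higher, 1.08% lower and 1.65% either. DESeq2, limma on RPKM and every other setting run for this comparison also called 0. At an unadjusted p under 0.05 there was 1, Krt222, against 16.2% of all genes. The median log2 fold change of the 28 tested keratins was 0.02, against 0 over all genes. Libraries of the 2 groups did not overlap for 1 keratin, Krt8, which was higher in tomato+ VEC at 0.131 to 0.214 CPM, against 0 to 0.112 CPM in tomato- VEC, on 5 counts in all for tomato+ VEC, against 2 for tomato- VEC. Such a separation was found for 7.46% of all genes with tomato+ VEC higher, 8.32% with it lower and 15.8% either way. Keratins took 0.000915% to 0.00838% of the counts of an endothelial library. Krt10, Krt20 and Krt222 made up 66.3% to 97.6% of those keratin counts, and the other 49 keratins together came to 17 to 36 counts per library. Fewer cells of a type and less RNA per cell cannot be told apart in such bulk libraries, for keratins here or above.

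Krt20 had 47.9, 16.5 and 0 CPM in tomato+ VEC, against 27.6, 2.87 and 1.12 CPM in tomato- VEC. Krt222 had 5.40, 70.9 and 1.5 CPM in tomato+ VEC, against 1.11, 0.212 and 5.38 CPM in tomato- VEC. Both ranged over more than 10-fold within a group, Krt222 with 1 library far above the rest, and the 2 groups overlapped. Their log2 fold changes were 1.03 ± 1.52 (95% interval -2.49 to 4.54, edgeR adjusted p 0.808) and 3.53 ± 1.51 (0.05 to 7.00, edgeR adjusted p 0.284). Krt10, which also varied widely within tomato+ VEC, had 0.520, 3.01 and 6.43 CPM there and 2.56, 3.40 and 5.38 CPM in tomato- VEC (log2 fold change -0.19 ± 0.85, edgeR adjusted p 0.969). The epithelial marker list stood beside these values at 0.208, 0 and 0.4285 CPM in tomato+ VEC and 0.111, 0.425 and 0.224 CPM in tomato- VEC, and Epcam had no count in tomato+ VEC. Krt20 had 461 and 126 counts in tomato+ VEC replicates 1 and 2. The source of the endothelial keratin counts was not tested. Set against the epithelial contrast, Krt222 was the keratin whose change differed (edgeR adjusted p 0.0251 for the difference between the contrasts), where 3.08% of all tested genes did. Among the genes that act with keratins only Jup, for plakoglobin of desmosomes and of endothelial junctions, was called in this comparison, where 1.65% of all genes were. It rose in tomato+ VEC, with 131, 108 and 140 CPM, against 38.0, 20.9 and 18.7 CPM in tomato- VEC (log2 fold change 2.29 ± 0.35, edgeR adjusted p 0.00725).

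**Figure D4:**
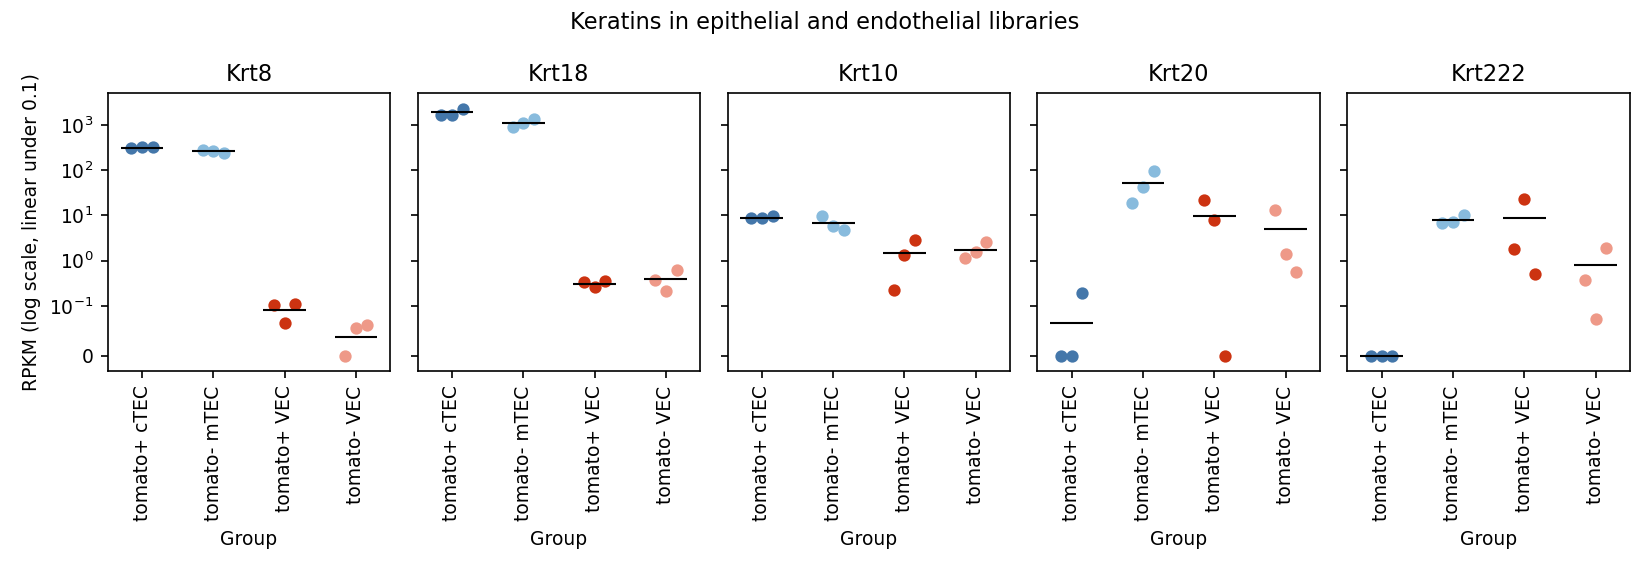
RPKM of 5 keratins in each library, on an axis that is logarithmic above 0.1 and linear below, with points for the 3 libraries of each group and a line at the group mean. Krt8 and Krt18 separate epithelial from endothelial libraries by over 3 decades, Krt10 is low but present in all 12, and Krt20 and Krt222 in endothelial libraries reach into or beyond the tomato- mTEC range while tomato+ cTEC is at or near 0.

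Set against the 2 endothelial groups, the 2 epithelial groups had 23 of the 28 tested keratins higher, 1 lower and 4 that did not pass, where 21.8% of all tested genes were called higher, 14.4% lower and 36.3% either. This contrast compares the mean log2 level of the epithelial groups with that of the endothelial groups. The median over the 28 was 7.07, or 6.66 with members without endothelial counts at their bound, against 0.18 over all genes. For 17 keratins every epithelial library lay above every endothelial one, which held for 9.49% of all genes, with 7.49% lower and 17% either. The filter shapes these values too. Apart from Krt10, Krt20 and Krt222, no tested keratin passed its minimum of 1.02 CPM in any endothelial library. The others entered through epithelial libraries alone and so had to be higher there. The count of calls, the median and the separations are therefore no test of the class. The populations were sorted by the epithelial surface protein EpCAM, and the gate and the tissue cannot be told apart. Krt8 rose by 11.86 ± 0.29 and Krt18 by 11.76 ± 0.29 on the log2 scale (edgeR adjusted p 1.98e-10 for both). Krt8 had 31109 counts over the epithelial libraries and 7 over the endothelial ones. The lowest epithelial library had 410 CPM of Krt8 and the highest endothelial one 0.214 CPM. For Krt7 the counts were 19238 in epithelial and 2 in endothelial libraries, a ratio of 8090-fold with a 95% counting interval of 2240 to 66800. Krt19 had 4426 epithelial and 3 endothelial counts, a ratio of 1240-fold with an interval of 424 to 6020. Krt42 had no count in any endothelial library and was at least 400-fold higher, and likewise Krt23 at least 158-fold and Krt12 at least 102-fold.

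The basal and activation-associated keratins all rose with the epithelial groups, among them Krt14 by 12.75 ± 0.45, Krt17 by 11.13 ± 0.35 and Krt5 by 9.92 ± 0.43 on the log2 scale (edgeR adjusted p 3.72e-09, 1.1e-09 and 1.67e-08). Krt10 rose by 2.09 ± 0.62 (edgeR adjusted p 0.0201) and was present in all 6 endothelial libraries, at 0.520 to 6.43 CPM. The call for Krt10 was lost without tomato- mTEC replicate 1 (1.88, edgeR adjusted p 0.0603) and at the threshold without tomato+ cTEC replicate 3 (2.02, edgeR adjusted p 0.05). Krt13, Krt20, Krt33b and Krt79 did not pass. Krt20 had a log2 value of -2.07 ± 1.21 (edgeR adjusted p 0.216), with 3229 counts in epithelial and 872 in endothelial libraries. The contrast averages log levels, and tomato+ cTEC was near 0. Krt222 was the keratin called lower in the epithelial groups (-3.89 ± 1.26, edgeR adjusted p 0.0345), with 674 epithelial counts, all from mTEC, and 668 endothelial counts. That value rests on the empty tomato+ cTEC libraries and turned to 0.12 with limma on log2(RPKM + 1). Calls in this contrast that hung on a single library were those of Krt222, lost on leaving out 8 of the 12 libraries one at a time (edgeR adjusted p 0.0573 to 0.0794, log2 fold change -4 to -2.48), and of Krt81, lost on leaving out 11 (edgeR adjusted p 0.0538 to 1, log2 fold change 3.08 to 4.19). Krt78 lost its call on leaving out 5 libraries, with an edgeR adjusted p of 0.0603 to 0.971 and a log2 fold change as low as 2.11 without tomato+ cTEC replicate 2. Krt12 lost it without tomato+ cTEC replicate 3, the cTEC library with all of its counts (4.9, edgeR adjusted p 1). Of the linker genes 7 rose and 3 fell in the epithelial groups, where 21.8% of all tested genes were called higher, 14.4% lower and 36.3% either, and the 3 were the broadly expressed plakins Plec, Dst and Macf1, at -1.31 ± 0.16, -1.10 ± 0.21 and -1.73 ± 0.16. Among the 7, Eppk1, Pkp1, Pkp2 and Tchh stood under the filter's minimum in every endothelial library, so the filter fixed their direction. All 8 tested cornified envelope genes rose, beside the same 21.8% of all genes. All of these but Sbsn stood under the filter's minimum in every endothelial library, so their direction was fixed by the filter. Vim, for vimentin, the usual intermediate filament protein of endothelium, fell by 3.31 on the log2 scale (SE 0.42, edgeR adjusted p 7.85e-05), with 21.4 to 256 CPM in epithelial libraries and 1207 to 1686 CPM in endothelial ones.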

How the data were processed

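RNA of the sorted cells was polyadenylated RNA, amplified with a SMARTer ultra-low input kit, per the labels' protocols. TopHat2 2.0.10 and build mm9 stand in the submitters' processing notes. For the read counter and annotation no source used here gives a name. The deposited table holds raw read counts per gene symbol and the authors' RPKM values, per the file headers. In all 21602 genes with counts the RPKM equalled the count over the column total and 1 length per gene. Strand was not stated, so overlapping genes cannot be told apart.

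Counts were tested with edgeR 4.0.16 (R 4.3.3) after filterByExpr with a minimum count of 10, which left 14792 genes. Libraries were scaled by TMM, and all 12 entered 1 quasi-likelihood fit by group, with 8 residual degrees of freedom. Its common dispersion of 0.624 is a coefficient of variation of 0.79 between libraries. A gene was called at a Benjamini-Hochberg adjusted p under 0.05, with no fold threshold. An SE is the absolute log2 fold change over the square root of the test's F value. Intervals of log2 fold changes use that SE with 8 degrees of freedom, so they need not match the test. A fold against a group with no counts is a bound against a floor of 3 counts. Counting intervals are at 95%, and like the floors they cover counting error only. Shared sequence was searched as 50-base words in GENCODE transcripts. Promoter windows came from a RefSeq table, and no coordinates of the deposited build are printed.

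The members and lists were chosen with earlier results of these data known. Named keratins are those with a group mean of at least 5 CPM, those called in any comparison, and Krt5, Krt14, Krt8, Krt18, Krt1 and Krt10. Others are named where a class is accounted for. Alternatives were DESeq2 1.42.0, limma 3.58.1 on log2(RPKM + 1) and log2(RPKM + 0.1), relative log expression scaling, no filter, at least 5 CPM in 3 libraries, a replicate block, only the 6 libraries compared, and leaving out each library of the groups compared. Scripts were tested on simulated counts.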

Additional observations from a re-analysis of the deposited data

Results flagged for a closer look

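Krt222 was the keratin whose contrast differed between epithelium and endothelium. Tomato+ cTEC over tomato- mTEC, less tomato+ VEC over tomato- VEC, gave -14.22 ± 2.73 (SE) on the log2 scale, with an edgeR adjusted p of 0.0251 for this difference, where 3.08% of all tested genes were called. In epithelium it had no count in tomato+ cTEC, against 17.5, 19.0 and 26.4 CPM in tomato- mTEC. In endothelium it had 5.40, 70.9 and 1.5 CPM in tomato+ VEC, against 1.11, 0.212 and 5.38 CPM in tomato- VEC, where the groups overlapped. The fitted size depends on the empty cTEC libraries and is no bound. The call was lost without tomato+ cTEC replicate 1 or 3, any tomato- mTEC library or tomato- VEC replicate 1. The cause was not tested.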

How the results depend on the processing

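Against 7 keratins called between tomato+ cTEC and tomato- mTEC, DESeq2 called 16, limma 17 on log2(RPKM + 1) and 14 on log2(RPKM + 0.1), and a fit of only the 6 epithelial libraries 13. All genes called went the same way, at 1158 in the fit reported and 2348, 2530, 2172 and 2487 under these. No filter and a replicate block each gave 4 keratins, both without Krt33b, Krt76 and Krt81. Of all tested genes they called 4.78% and 5.5%, against 7.83% in the fit reported. Leaving out 1 epithelial library gave 1 to 3 keratins, where all genes called came to between 428 and 702. Between tomato+ VEC and tomato- VEC every setting called 0. Of 24 calls between epithelial and endothelial groups 15 were left with at least 5 CPM in 3 libraries, a filter that tests fewer genes. It called 35.4% of all genes it tested, against 36.3% in the fit reported. Of the difference between the contrasts, where 1 keratin, Krt222, was called and the alternatives were added after seeing the data, DESeq2 called 4, no filter 2, a replicate block 0, limma 11 and 8, and leaving out 1 library 0 to 2. Over all tested genes the shares called were, in the same order, 10.4%, 2.15%, 1.82%, 11.9% and 10.3%. They were 1.03% to 3.09% with 1 library left out, against 3.08% in the fit reported. The cause of these shifts was not tested. Without division by length the shares in tomato- mTEC were 20.2% for basal and 42.8% for activation-associated keratins, and with a count in all 3 libraries as the rule 6 keratins were detected in tomato+ VEC and 6 in tomato- VEC.

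Signs turned for values that had not passed, and for 1 that had, Krt222 in epithelial against endothelial groups. With 1 library left out, tomato+ cTEC against tomato- mTEC ran from -0.9 to 0.29 for Krt15, with 0.03 between, -2.51 to 1.14 for Krt23, -0.16 to 0.03 for Krt7, with 0.01 between, -1.16 to 1.33 for Krt6b and -1.55 to 1.04 for Krt83, and tomato+ VEC against tomato- VEC from -0.51 to 0.18 for Krt18, -1.07 to 0.35 for Krt10, with 0.18 between, and -0.29 to 3.43 for Krt20. With limma, tomato+ cTEC against tomato- mTEC gave 0.38 for Krt23, 0.12 for Krt83 and 0 and 0 for Krt7. In epithelial against endothelial groups limma gave 0.54 and 0.01 for Krt20 and 0.12 for Krt222. Relative log expression scaling moved the median of all genes there to 0.31. Whether replicate numbers pair the libraries is not stated. Correlations of the deviations were -0.01 to 0.07 for same-numbered libraries and -0.05 to 0.02 for differently numbered ones, which cannot settle it. The block moved the TEC count from 7 to 4 and the epithelial to endothelial count from 24 to 21. Under the block 5.5% and 33.3% of all tested genes were called in these comparisons. Single keratins of a few counts per library are limited by depth.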
